A study of Mus musculus with 12 samples.

Results

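The epicardial genes described here were 10 genes known to mark the epicardium, the cell layer on the surface of the heart: Wt1, Tbx18, Tcf21, Bnc1, Upk3b, Upk1b, Msln, Krt19, Aldh1a1 and Aldh1a2. They were found by symbol, and all 10 were present among the 53801 genes measured. Hearts of C57BL/6N mice were profiled by RNA sequencing after a sham operation or after acute myocardial infarction (AMI), which was produced by ligating the left anterior descending coronary artery. The 12 libraries were 4 sham hearts, 4 hearts taken 1 day after AMI and 4 hearts taken 7 days after AMI. The labels name no genetic change and no drug in any group. The study describes its surgeries as done in adult male mice, and no time after surgery is given for the sham group. Hearts are numbered 1 to 4 in each group, and values are given in that order. Total counts ranged from 23204551 to 32166517 per library, and a count of 3, taken as the floor, equalled 0.0895 to 0.156 CPM.

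The epicardium is a mesothelial sheet that lines the heart and faces the pericardial cavity. In the embryo its cells carry the transcription factors Wt1, Tbx18 and Tcf21, and some of them lose their epithelial character and move inward to become fibroblasts and mural cells of vessels. Retinoic acid made by Aldh1a2 acts in this process, and in the adult heart injury is known to bring embryonic epicardial genes back. The markers are not exclusive, since Tcf21 is also carried by resident fibroblasts, Tbx18 by mural cells and Wt1 by some endothelial cells. In RNA of whole hearts, a change in the number of cells of a type and a change in RNA per cell cannot be told apart.

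At day 1 after AMI the list split, and by day 7 most of it stood above the sham level. Aldh1a2 was the member with the largest rise at day 1, Upk3b fell, and Wt1, Tbx18 and Tcf21 were close to sham. At day 7 these 3 transcription factors were 2.18-fold to 2.74-fold above sham, Upk3b was back near its sham level, and Aldh1a2 had come down without reaching it. A gene was called when its fold change was 2 or greater and its adjusted p (edgeR's quasi-likelihood test, Benjamini-Hochberg adjustment over all 15306 genes tested) was below 0.05. Between day 1 AMI and sham, 3 of the 10 members were called higher (Aldh1a2, Krt19 and Upk1b), where 7.79% of all tested genes were called higher, and 1 was called lower (Upk3b), where 2.98% of all genes were. Between day 7 and day 1 AMI, 7 members were called higher, beside 8.55% of all genes, and 1, Aldh1a2, was called lower, beside 2.69%. Of the 7, Bnc1 passed the filter on low counts through day 7 alone, and the other 6 did not depend on that group to pass. Between day 7 AMI and sham, 6 members were called higher, beside 15.3% of all genes. No member was called lower at day 7 than in sham, beside 5.88% of all genes, and the lowest edgeR log2 fold change of a member was 0.22. In that comparison no member changed sign by DESeq2 or limma, so none was called lower by those either. With any 1 heart left out the higher counts were 1 to 3, 5 to 8 and 4 to 6 in the order given, with 1 at day 1 without day 1 replicate 1, 5 without day 1 replicate 4 and 4 without sham replicate 4. The median log2 fold change of the members was -0.05, 1.19 and 1.14 in the 3 comparisons, where that of all tested genes was -0.01, 0.02 and 0.03. The medians of the members include Bnc1. The 3 comparisons share groups, so their values are given side by side.

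**Figure D1:**
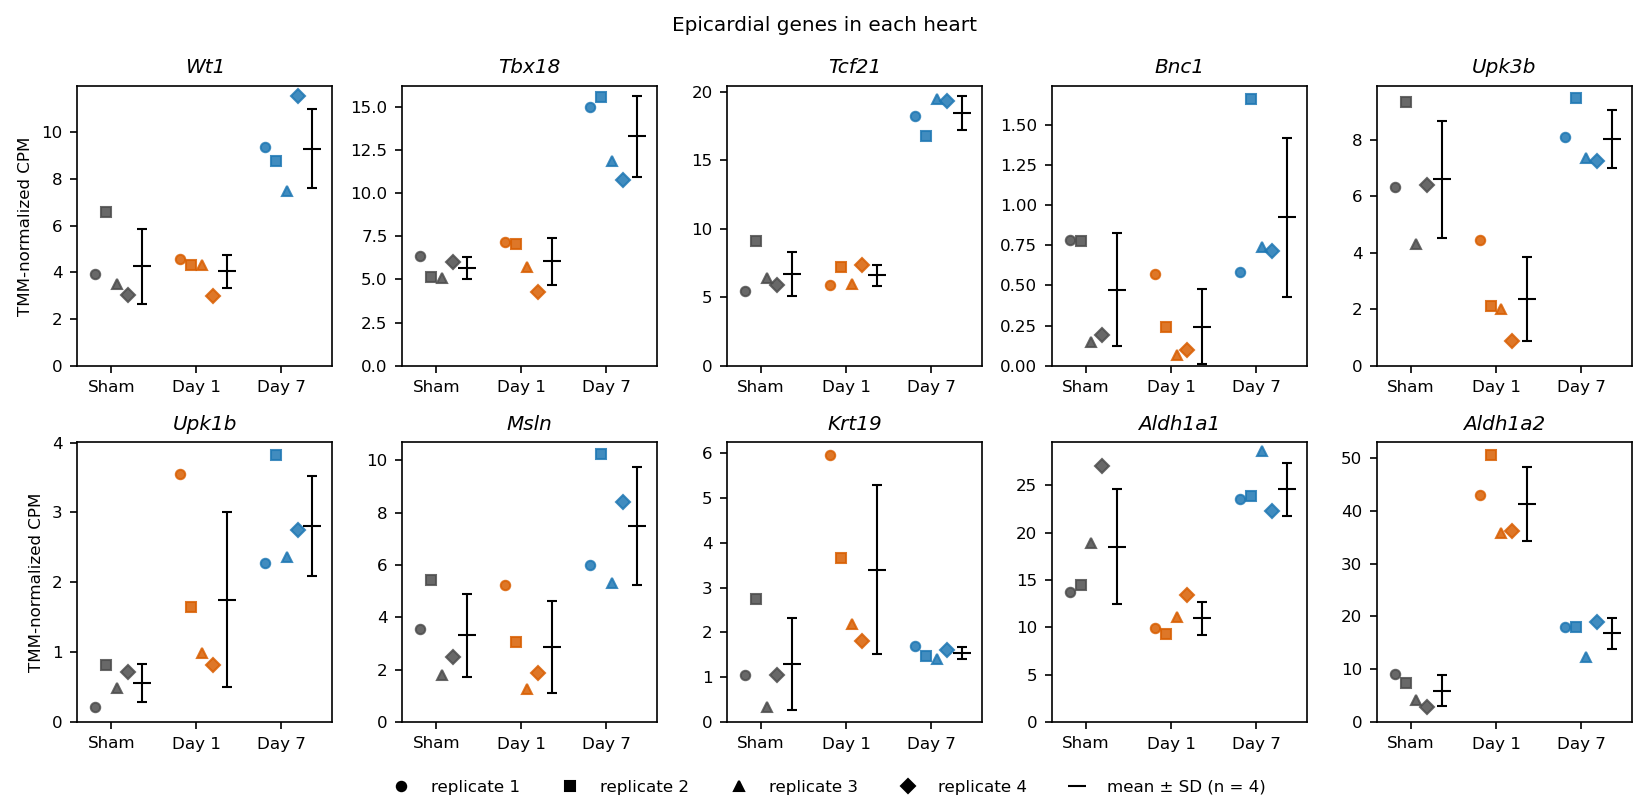
TMM-normalized CPM (y axis, linear, from 0) of each epicardial gene in the 4 hearts of each group (x axis), with marker shapes for replicates 1 to 4 and bars for mean ± SD (n = 4). Aldh1a2 peaks at day 1 (35.8 to 50.7 CPM), Upk3b is lowest at day 1 (0.883 to 4.44 CPM), and Tcf21 at day 7 (16.8 to 19.5 CPM) stands above the other 8 hearts.

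All 10 members passed the filter on low counts. Bnc1 reached the filter's CPM in 2 sham, 1 day 1 and 4 day 7 libraries, so that it passed through the group in which it was high. Some hearts stood apart. Among the sham hearts, replicate 2 had the highest value for 6 of the 10 members, and its erythroid gene sum was 4450 CPM where the other sham hearts had 491 to 1178. Sham replicate 4 had 923 CPM of atrial genes, where the others had 122 to 253. Among the day 1 hearts, replicate 1 was highest for 7 of the 10 members and replicate 4 lowest for 5. Lung surfactant genes had counts in day 7 replicate 3 (132 of Sftpc) and replicate 1 (34 of Sftpc), and Sftpc was at 0 in the other 10 libraries. Without these day 7 hearts, a choice made after the data were seen, the counts of members called were again 7 higher and 1 lower against day 1, and 6 higher and 0 lower against sham.

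The transcription factors come first. Wt1, a zinc finger protein of the embryonic and injured epicardium, had 3.91, 6.57, 3.49 and 3.01 CPM in sham replicates 1 to 4. Its day 1 values were 4.55, 4.30, 4.32 and 2.96 CPM, and its day 7 values 9.37, 8.77, 7.49 and 11.5 CPM. The day 1 hearts lay within or just below the sham range, while each day 7 heart exceeded each heart of the other groups. The log2 fold change was -0.08 (SE 0.23, edgeR adjusted p = 0.797) at day 1 and 1.12 (SE 0.23, edgeR adjusted p = 0.000704) at day 7, both against sham, and 1.21 (SE 0.22, edgeR adjusted p = 0.000614) from day 1 to day 7. Without sham replicate 4 the day 7 log2 fold change was 0.99, just under the fold change minimum (edgeR adjusted p = 0.0027).

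Tbx18, a T-box factor, varied little among the sham hearts, with 6.36, 5.13, 5.09 and 6.02 CPM. It had 7.15, 7.07, 5.72 and 4.26 CPM at day 1 and 15.0, 15.6, 11.8 and 10.8 CPM at day 7. Its groups overlapped at day 1 and were apart at day 7. The day 7 level was 2.35-fold the sham level (log2 fold change 1.23, SE 0.18, edgeR adjusted p = 3.5e-05) and 2.20-fold the day 1 level (log2 fold change 1.14, SE 0.17, edgeR adjusted p = 0.000125). Leaving out day 1 replicate 4, the lowest of its group, brought the second value to 1.00, at the edge of the minimum and not past it. In the annotation, 20.6% of the exon bases of Tbx18 (970 of 4718) overlap D030062O11Rik on the opposite strand, which had 1 to 14 counts per library where Tbx18 had 105 to 486. Whether the counting used strand is not given in the sources used here.

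Tcf21, a basic helix-loop-helix factor of epicardium and cardiac fibroblasts, had the tightest groups of the factors after injury. It had 5.42, 9.08, 6.40 and 5.93 CPM in sham, 5.93, 7.22, 5.99 and 7.35 CPM at day 1, and 18.3, 16.8, 19.5 and 19.3 CPM at day 7. Sham replicate 2 was the highest of the first 8 hearts, and the lowest day 7 heart had more than that. The log2 fold change was -0.02 (SE 0.15, edgeR adjusted p = 0.919) at day 1 against sham and 1.45 (SE 0.15, edgeR adjusted p = 1.88e-06) at day 7, the smallest adjusted p of a member in that comparison. Leaving out any 1 heart kept the latter between 1.37 and 1.64.

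Bnc1, a zinc finger protein of mesothelium and other epithelia, was the rarest member. Its counts were 15, 19, 3 and 4 in sham, 15, 8, 2 and 3 at day 1 and 19, 43, 20 and 21 at day 7, so that several sham and day 1 hearts were at or near the floor of 3. It passed the filter through day 7, where it was high, so no fold change is given for it in the text. Its marks in the plot of log2 fold changes of the epicardial genes are not read as a result. Its call at day 7 against day 1 was lost without day 1 replicate 3, day 1 replicate 4 or day 7 replicate 2, and it was not called against sham.

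**Figure D2:**
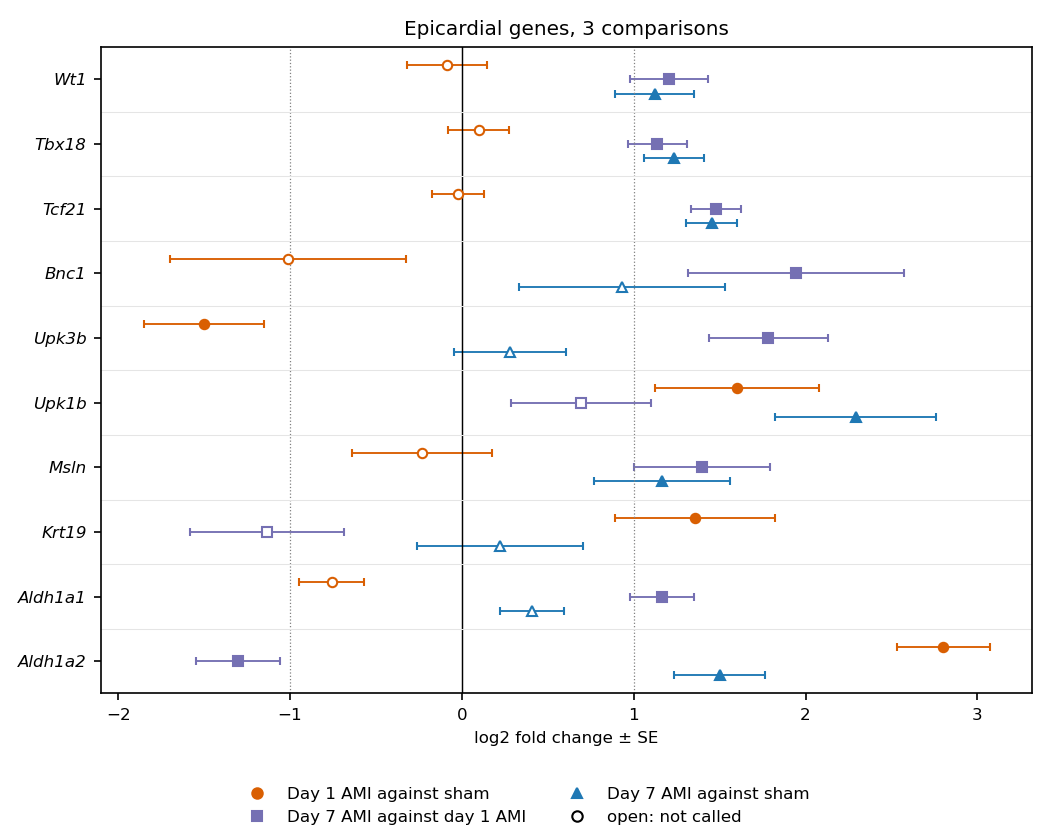
Log2 fold change ± SE from edgeR (x axis) of each epicardial gene (y axis) in the 3 comparisons, with filled marks for called genes and dotted lines at a fold change of 2. The day 1 values run from -1.50 (Upk3b) to 2.80 (Aldh1a2), and the day 7 values against sham from 0.22 (Krt19) to 2.29 (Upk1b). Bnc1 passed the filter through day 7, where it was high, and its marks are not read as a result.

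The genes of the mesothelial surface did not move as a block. Upk3b encodes a uroplakin that marks mesothelium. It had 6.31, 9.32, 4.32 and 6.41 CPM in sham, 4.44, 2.12, 2.00 and 0.883 CPM at day 1, and 8.07, 9.47, 7.34 and 7.24 CPM at day 7. Day 1 replicate 1 slightly exceeded the lowest sham heart, the other 3 day 1 hearts lay below all sham hearts, and the day 7 hearts lay above all day 1 hearts. Upk3b was 2.83-fold lower at day 1 than in sham (log2 fold change -1.50, SE 0.35, edgeR adjusted p = 0.00374) and 3.44-fold higher at day 7 than at day 1 (1.78, SE 0.35, edgeR adjusted p = 0.00083). Against sham the day 7 value was 0.28 (SE 0.33, edgeR adjusted p = 0.481).

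Upk1b, a tetraspanin that is another uroplakin, rose where Upk3b fell. Its sham counts were 4, 20, 10 and 15, its day 1 counts 93, 55, 30 and 26, and its day 7 counts 74, 99, 64 and 81. In CPM the sham hearts had 0.209 to 0.821, the day 1 hearts 0.82 to 3.56 and the day 7 hearts 2.28 to 3.82. Sham and day 1 met at 0.82 CPM, and the day 7 hearts stood clear of sham. The rise was 3.03-fold at day 1 (log2 fold change 1.60, SE 0.48, edgeR adjusted p = 0.0155) and 4.90-fold at day 7 (2.29, SE 0.47, edgeR adjusted p = 0.000752), both against sham. The day 1 call rested on replicate 1, without which the log2 fold change was 1.01 (edgeR adjusted p = 0.0597). From day 1 to day 7 the log2 fold change was 0.69 (SE 0.41, edgeR adjusted p = 0.177), and without day 1 replicate 1 it was 1.28 (edgeR adjusted p = 0.0104).

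Msln encodes mesothelin, an anchored surface protein of mesothelial cells. It had 3.55, 5.42, 1.79 and 2.49 CPM in sham, 5.24, 3.07, 1.28 and 1.86 CPM at day 1, and 6.01, 10.2, 5.31 and 8.40 CPM at day 7. The sham and day 1 ranges nearly coincided, and day 7 replicate 3 lay just under the highest sham heart. Msln was 2.63-fold higher at day 7 than at day 1 (log2 fold change 1.40, SE 0.39, edgeR adjusted p = 0.00993) and 2.24-fold higher than in sham (1.17, SE 0.40, edgeR adjusted p = 0.0205). The call against sham was lost without sham replicate 3 (edgeR adjusted p = 0.0606), sham replicate 4 (0.0559) or day 7 replicate 2 (0.0651). For Msln, 1.43% of its 75-base transcript stretches also occur in transcripts of other genes, and the share was 1.01% for Aldh1a1 (all with Aldh1a7) and 0 for the other 8 members.

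Krt19, a keratin of simple epithelia and mesothelium, was raised at day 1 alone. Its sham hearts had 1.04, 2.75, 0.34 and 1.05 CPM, its day 1 hearts 5.97, 3.67, 2.19 and 1.80 CPM, and its day 7 hearts 1.69, 1.47, 1.40 and 1.60 CPM. Sham replicate 2 overlapped the day 1 range, and the day 7 hearts all lay below the day 1 hearts. The day 1 log2 fold change was 1.36 (SE 0.47, edgeR adjusted p = 0.0309), the weakest of the day 1 calls. The call was lost without sham replicate 1, 3 or 4, or without day 1 replicate 1 or 2, with edgeR adjusted p from 0.0633 to 0.121. With any 1 heart left out the day 1 log2 fold change ran from 0.95 to 2.06. At day 7 Krt19 was 2.19-fold below day 1 without passing the threshold (log2 fold change -1.13, SE 0.45, edgeR adjusted p = 0.0516), and DESeq2 did call it (adjusted p = 0.0247).

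Aldh1a1 and Aldh1a2 encode retinaldehyde dehydrogenases, the enzymes that make retinoic acid, and at day 1 they moved in opposite directions. Aldh1a2, the enzyme of the embryonic epicardium, had 9.18, 7.43, 4.22 and 2.92 CPM in sham, 43.1, 50.7, 35.8 and 36.2 CPM at day 1, and 17.9, 17.9, 12.4 and 18.9 CPM at day 7. The 3 groups did not overlap. Aldh1a2 was 6.98-fold higher at day 1 than in sham (log2 fold change 2.80, SE 0.27, edgeR adjusted p = 1.16e-05), 2.47-fold lower at day 7 than at day 1 (-1.30, SE 0.25, edgeR adjusted p = 0.000664) and 2.83-fold higher at day 7 than in sham (1.50, SE 0.27, edgeR adjusted p = 0.000236). Leaving out any 1 heart kept the day 1 value between 2.58 and 3.08.

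Aldh1a1, which also acts in other cell types, had 13.8, 14.5, 18.9 and 27.0 CPM in sham, 9.98, 9.34, 11.1 and 13.4 CPM at day 1, and 23.6, 23.9, 28.6 and 22.2 CPM at day 7. Each day 1 heart lay below each sham heart, and the day 7 hearts lay within or just above the sham range. The day 1 value against sham was -0.76 (SE 0.19, edgeR adjusted p = 0.0055), which passed the test and not the fold change minimum. At day 7 the gene was 2.24-fold above day 1 (log2 fold change 1.17, SE 0.19, edgeR adjusted p = 0.000193). Against sham the day 7 value was 0.41 (SE 0.18, edgeR adjusted p = 0.0701), and limma on log2(TPM + 0.1) gave 1.05, past the threshold, on a scale where the median of all genes was 0.57.

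Promoter sequence is shown for the members that moved furthest up and down at day 1 (Aldh1a2 and Upk3b) and for the factor with the tightest rise at day 7 (Tcf21). RefSeq windows of 300 bases on GRCm38.p6 were at hand for 6 of the 10 members, as 7 windows (Aldh1a1 has 2), and the printed part ends before the annotated start of the transcript. The Aldh1a2 stretch is chr9:71215539-71215788 on the + strand, that of Upk3b chr5:136038246-136038495 on the + strand, and that of Tcf21 chr10:22820175-22820393 on the - strand, all outside annotated exons and just upstream of exon 1. Capitals mark matches, on either strand, to any of the motifs named in the next paragraph.
Aldh1a2: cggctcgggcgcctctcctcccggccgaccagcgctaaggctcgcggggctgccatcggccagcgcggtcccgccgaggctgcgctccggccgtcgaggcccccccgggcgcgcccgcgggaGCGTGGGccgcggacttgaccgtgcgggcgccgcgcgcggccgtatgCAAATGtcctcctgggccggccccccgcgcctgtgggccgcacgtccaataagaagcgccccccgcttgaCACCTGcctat
Upk3b: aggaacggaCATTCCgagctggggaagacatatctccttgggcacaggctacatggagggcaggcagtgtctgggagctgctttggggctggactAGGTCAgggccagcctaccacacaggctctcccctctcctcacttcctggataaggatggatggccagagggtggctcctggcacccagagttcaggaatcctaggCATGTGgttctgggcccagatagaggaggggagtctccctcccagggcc
Tcf21: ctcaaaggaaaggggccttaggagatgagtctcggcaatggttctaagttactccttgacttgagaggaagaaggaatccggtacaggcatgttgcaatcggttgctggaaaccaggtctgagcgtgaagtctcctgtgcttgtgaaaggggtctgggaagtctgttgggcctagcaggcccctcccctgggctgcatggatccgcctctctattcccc

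The motifs were the TEAD core GGAATG, the GC box GGGCGG, the T-box half-site GGTGTGA, the nuclear receptor half-site AGGTCA, the EGR and WT1 core GCGTGGG and the E-box CANNTG. Aldh1a2 held 1 EGR and WT1 core at -128 from the start and 2 E-boxes, in a stretch with 77.6% G and C. Upk3b held 1 TEAD core at -241, 1 nuclear receptor half-site at -155 and 1 E-box, with 60.8% G and C. Tcf21 held no match to the 6 motifs. Of 32851 windows of the same length over all genes, 14.7% held a TEAD core, 35.7% a GC box, 3.98% a T-box half-site, 16.3% a nuclear receptor half-site, 5.04% the EGR and WT1 core and 72.3% an E-box. Among the other members, the Bnc1 window held 6 GC boxes, and a TEAD core and a T-box half-site lay in 1 window of Aldh1a1. A match is a description of the letters and no evidence of binding.

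In the annotation of GRCm38 all 10 members are protein-coding genes on different stretches of 9 chromosomes. Tbx18 (ENSMUSG00000032419, chr9:87702800-87731260, - strand) and Aldh1a2 (ENSMUSG00000013584, chr9:71215789-71296243, + strand) share chromosome 9. Wt1 is ENSMUSG00000016458 (chr2:105126529-105173616, + strand), Tcf21 is ENSMUSG00000045680 (chr10:22817281-22820174, - strand), Bnc1 is ENSMUSG00000025105 (chr7:81966672-81992292, - strand) and Upk3b is ENSMUSG00000042985 (chr5:136038496-136046487, + strand). Upk1b is ENSMUSG00000049436 (chr16:38773184-38800328, - strand), Msln is ENSMUSG00000063011 (chr17:25748613-25754378, - strand), Krt19 is ENSMUSG00000020911 (chr11:100140810-100148665, - strand) and Aldh1a1 is ENSMUSG00000053279 (chr19:20492715-20643465, + strand).

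Levels between genes were compared in TPM, which corrects for transcript length. In sham hearts Aldh1a1 (13.4 ± 3.94 TPM, mean ± SD, n = 4) and Tcf21 (7.36 ± 2.24 TPM) led, with overlapping ranges, and Tcf21 was clear of Aldh1a2 (3.20 ± 1.48 TPM). From Aldh1a2 down through Wt1, Upk3b, Msln, Tbx18, Krt19, Upk1b and Bnc1 (0.12 ± 0.0876 TPM), each gene overlapped the next. The order changed at day 1, when Aldh1a2 led with 28.0 ± 4.69 TPM, clear of Aldh1a1 (10.4 ± 1.60 TPM), and Upk3b (0.968 ± 0.597 TPM) was lower than all but Bnc1 in mean, with a range that overlapped that of Upk1b. At day 7 Tcf21 (29.2 ± 2.31 TPM) and Aldh1a1 (27.2 ± 2.80 TPM) led together, clear of Aldh1a2 (13.4 ± 2.71 TPM), which overlapped Wt1 (7.68 ± 1.79 TPM). Bnc1 was last in all 3 groups.

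Ratios of raw counts within a library, which do not depend on normalization, describe the split at day 1. They were chosen after the values were seen and were not tested. Upk1b over Upk3b was 0.0331 to 0.112 in sham, 0.492 to 0.929 at day 1 and 0.282 to 0.404 at day 7, so the 3 groups did not overlap. Krt19 over Upk3b was 0.0787 to 0.295 in sham, 1.10 to 2.04 at day 1 and 0.155 to 0.221 at day 7, a return into the sham range. Aldh1a2 over Upk3b went from 0.455 to 1.45 in sham to between 9.71 and 41.0 at day 1 and between 1.68 and 2.61 at day 7. Aldh1a2 over Aldh1a1 was 0.108 to 0.667 in sham, 2.71 to 5.42 at day 1 and 0.432 to 0.85 at day 7.

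**Figure D3:**
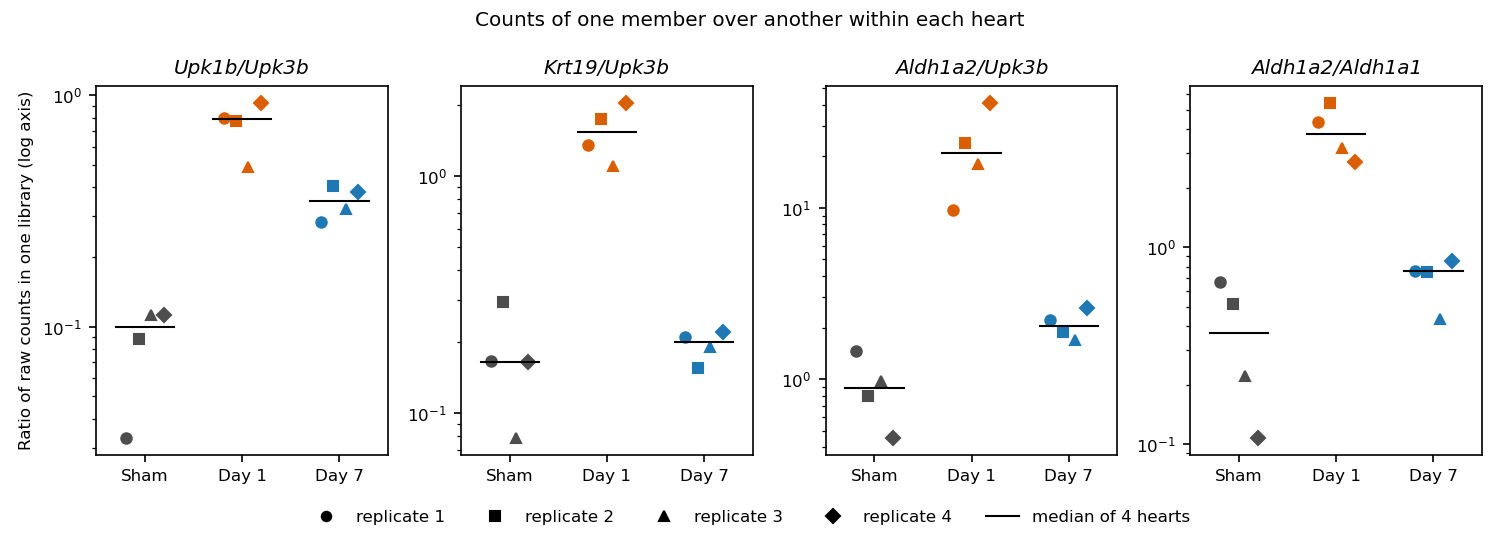
Ratio of raw counts of an epicardial gene over another in the same library (y axis, log scale) by group (x axis), with marker shapes for replicates and a line at the median of 4 hearts. Day 1 hearts are highest in all 4 panels, as in Upk1b over Upk3b with a day 1 range of 0.492 to 0.929.

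A list of 14 other mesothelial genes, all of which passed the filter, held called genes in each comparison. At day 1 against sham, 6 were called higher and 1, Muc16, lower (all genes 7.79% and 2.98%). At day 7 against day 1, 5 were higher and 2 lower (all genes 8.55% and 2.69%), and against sham 6 were higher and 0 lower (all genes 15.3% and 5.88%). The median log2 fold changes of all 14 were 0.11, 0.36 and 1.19. These medians include the genes named below that passed the filter through groups in which they were high. With any 1 heart left out, the day 1 counts were 5 to 6 higher and 1 to 2 lower, those of day 7 against sham 5 to 8 higher and 0 lower, and those of day 7 against day 1 3 to 6 higher and 2 to 3 lower. The count of 3 came without day 1 replicate 3, day 1 replicate 4 or day 7 replicate 2, and the count of 2 lower at day 1 without sham replicate 3 or day 1 replicate 1 or 4. Cdh1, the cadherin of epithelial junctions, had 0, 1, 0 and 1 counts in sham, 46, 47, 42 and 32 at day 1 and 28, 10, 8 and 8 at day 7, so it was near absent from sham libraries and present in each infarcted heart. Pdpn, a sialoglycoprotein of mesothelium that other activated cells also carry, was the most abundant gene of the list and followed the course of Aldh1a2, with log2 fold changes of 2.83 at day 1 and 1.65 at day 7 against sham. The keratin Krt18 rose at both times (2.24 and 2.22). Dmkn had 2, 7, 0 and 3 counts in sham, 40, 20, 23 and 23 at day 1 and 13, 17, 9 and 30 at day 7. Cdh1 and Dmkn reached the filter's CPM in 0 sham libraries and passed through the infarcted groups, so no fold change is given for them in the text. The counts of 6 higher include both. The 2 lower at day 7 against day 1 include Cdh1, which reached that CPM in 4 day 1 and 2 day 7 libraries.

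Muc16, the membrane mucin of mesothelial surfaces, was lowest at day 1, as Upk3b was. It had 53, 53, 16 and 18 counts in sham, 23, 7, 11 and 4 at day 1 and 56, 143, 62 and 69 at day 7. It fell at day 1 (log2 fold change -2.10, SE 0.59, edgeR adjusted p = 0.011) and rose from day 1 to day 7 (2.95, SE 0.57, edgeR adjusted p = 0.00083). Day 1 replicate 1 had 0.879 CPM and the other day 1 hearts 0.126 to 0.36 CPM, so the size of both values depends on that heart. Sema3d, a secreted guidance protein, rose by 1.63 from day 1 to day 7 and stood 1.69 above sham on the log2 scale. Crb2, a polarity protein, had 2 to 12 counts in sham, 3 to 16 at day 1 and 19 to 28 at day 7. It reached the filter's CPM in 1 sham, 1 day 1 and 4 day 7 libraries and so passed through the group in which it was high. No fold change is given for it in the text, and the list's counts of genes higher at day 7 include it. Cldn15 was called in no comparison, with values of 0.16, 0.14 and 0.30. Chosen after their values were seen, the keratins Krt7 and Krt8 had day 1 values of 1.77 and 2.39 and were highest in day 1 replicate 1 (87 and 180 counts), the heart in which Upk1b and Krt19 were also highest. Without that heart Krt7 was no longer called at day 1 (1.27, edgeR adjusted p = 0.0652). Krt8 had 6.88 CPM in that heart and 1.92 to 2.27 CPM in the other day 1 hearts, so the size of its value depends on it too.

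**Figure D4:**
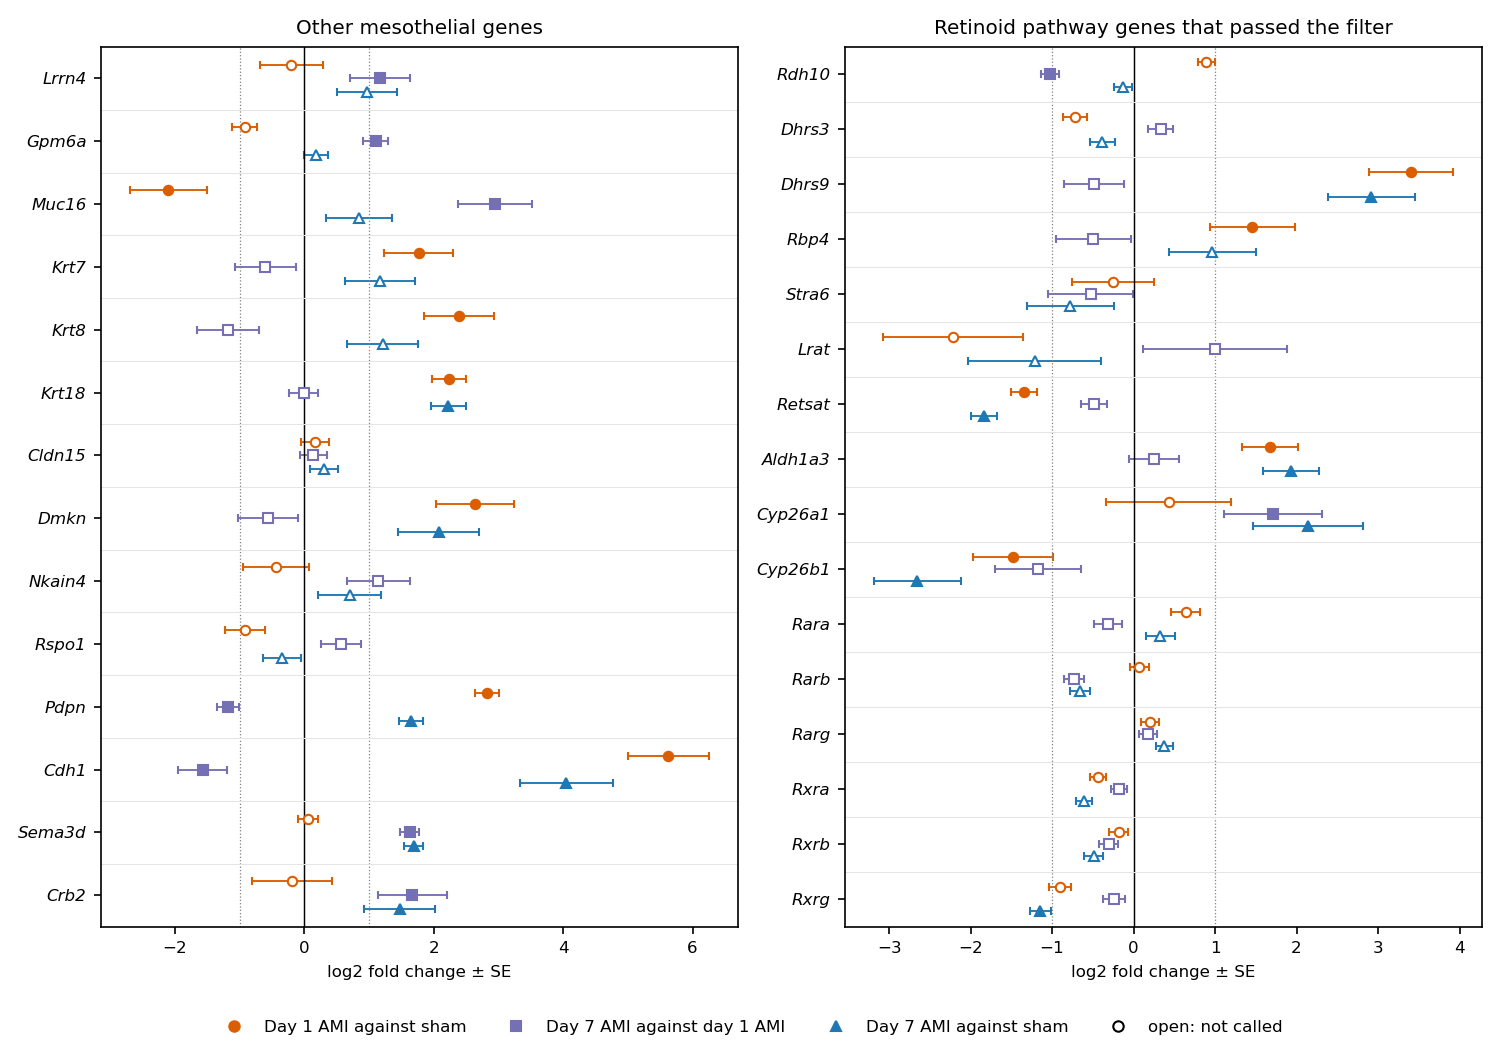
Log2 fold change ± SE from edgeR (x axes) of the 14 other mesothelial genes (left) and the 16 retinoid pathway genes that passed the filter (right) in the 3 comparisons, with filled marks for called genes and dotted lines at a fold change of 2. At day 1 Pdpn and Krt18 lie to the right and Muc16 (-2.10) to the left. Cdh1, Dmkn, Crb2, Krt7, Krt8, Dhrs9, Rbp4 and Cyp26a1 passed the filter through groups in which they were high, and their marks are not read as results.

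Of 20 other genes of retinoid handling, 16 passed the filter. At day 1, 3 were called higher and 2 lower than in sham, beside 7.79% and 2.98% of all genes. The 3 include Dhrs9 and Rbp4, the latter chosen after its values were seen. These 2 reached the filter's CPM in 0 and 1 sham libraries and in 4 day 1 libraries, so they were tested because infarcted hearts were high. At day 7, 1 was higher and 1 lower than at day 1 (all genes 8.55% and 2.69%), and 3 were higher and 3 lower than in sham (all genes 15.3% and 5.88%). The median log2 fold changes of all 16 were -0.06, -0.31 and -0.44, with Dhrs9, Rbp4 and Cyp26a1 included. With any 1 heart left out, the counts were 2 to 3 higher and 1 to 3 lower at day 1 against sham, 0 to 1 higher and 0 to 2 lower at day 7 against day 1, and 3 to 4 higher and 3 lower at day 7 against sham. Of the genes that supply retinaldehyde, Dhrs9 had 3, 5, 1 and 0 counts in sham and 25 to 63 at day 1 and 21 to 31 at day 7. It reached the filter's CPM in 0 sham libraries and was tested because the infarcted groups were high. No fold change of Dhrs9 or Rbp4 is given in the text. Rdh10, the main retinol dehydrogenase of the embryo, fell from day 1 to day 7 (-1.02), and its day 1 value of 0.89 was under the fold change minimum. Without day 1 replicate 2 or day 7 replicate 4 the fall was -0.97 or -0.99, under the minimum too. Aldh1a3, a further enzyme of the family, rose at day 1 (1.68) and day 7 (1.93), with sham counts of 16 to 38 and day 1 counts of 69 to 185.

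Of the enzymes that break retinoic acid down, Cyp26b1 had 784 counts in sham replicate 4 and 140 to 258 in the other sham hearts. Its day 1 value against sham, -1.48, rested on that heart, without which it was -0.59 (edgeR adjusted p = 0.196), and the call was also lost without day 1 replicate 1 or 3. The day 7 value against sham, -2.65, stayed called without any 1 heart, but its size also depends on sham replicate 4. That heart had 37.5 CPM, the other sham hearts 7.30 to 10.6 CPM and the day 7 hearts 2.12 to 3.14 CPM. Cyp26a1 had 0 to 8 counts in sham, 1 to 14 at day 1 and 16 to 23 at day 7. It reached the filter's CPM in 0 sham, 1 day 1 and 4 day 7 libraries, so it was tested because day 7 was high, and no fold change is given in the text. The list's counts of genes higher at day 7 include it, and those against sham include Dhrs9. Dhrs3, the most abundant gene of the list, which reduces retinaldehyde, was called in no comparison (-0.72, 0.33 and -0.38). The receptor Rxrg was lower at day 7 than in sham (-1.14).

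The transcription factors of epithelial to mesenchymal transition, the process by which epicardial cells leave the surface, passed the filter in 8 of 8 cases. At day 1, 1 was called higher than in sham (all genes 7.79%), and at day 7, 2 were higher than at day 1 (8.55%) and 5 higher than in sham (15.3%). In the 3 comparisons 0 were lower, beside 2.98%, 2.69% and 5.88% of all genes, and the median log2 fold changes were 0.62, 0.47 and 1.32. Snai1 was the gene raised at day 1 (1.73), and it stayed so at day 7 (2.00). Snai2 and Sox9 rose between day 1 and day 7, as Wt1, Tbx18 and Tcf21 did, by 1.85 and 1.75. Twist1 was 1.60 above sham at day 7. The most abundant, Prrx1 and Zeb1, were called in no comparison. The 0 lower calls are edgeR's, and the lowest value of a gene of the list was -0.44 (Snai2 at day 1, edgeR adjusted p = 0.0659).

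Relatives of the members were mostly rare. Of 11 paralogues and neighbours, 4 passed the filter, and 2, 0 and 2 were called higher in the 3 comparisons (all genes 7.79%, 8.55% and 15.3%) with none lower (2.98%, 2.69% and 5.88%). The called genes were Bnc2 and Aldh1a3, and Aldh1a3 is also counted in the retinoid list. Bnc2, the paralogue of Bnc1, rose at day 1 (1.28) and day 7 (2.00) against sham, with 7 to 16, 29 to 62 and 44 to 114 counts. Tbx20, the most abundant, had 0.20 and 0.43 against sham and was not called, and Tbx15 had 0.20 and 0.97. Of the other uroplakins, Upk1a had 4 to 12 counts, Upk2 0 to 7, Upk3a 0 or 1 and Upk3bl 0 in all libraries. Mslnl had 0 to 4 counts and Aldh1a7, the close copy of Aldh1a1, 0 to 9. Wt1os, the antisense neighbour of Wt1, had 0 or 1 count in sham, 1 to 4 at day 1 and 3 to 10 at day 7.

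Markers of other cell types moved with the same comparisons, and their part in the results was not tested. The counts of called markers below stand beside these shares of all genes: 7.79% higher and 2.98% lower at day 1 against sham, 8.55% and 2.69% at day 7 against day 1, and 15.3% and 5.88% at day 7 against sham. The 11 fibroblast genes, led by Col3a1 in TPM, summed to 2637, 2800, 2830 and 2903 CPM in sham, 2616, 3538, 2771 and 3645 CPM at day 1 and 17499, 11976, 9445 and 12119 CPM at day 7. Fibroblast genes thus rose over the same interval as Tcf21, Tbx18 and Wt1, with 8 of 11 called higher at day 7 than at day 1 (all genes 8.55%), among them Postn (4.23) and Col1a1 (3.01). Against sham 4 were called higher at day 1, and 6 higher and 1, Gsn, lower at day 7. The lower call was lost without sham replicate 4 or day 7 replicate 2. The 8 leukocyte genes, led by Lyz2, summed to 306, 317, 237 and 220 CPM in sham, 515, 731, 489 and 580 CPM at day 1 and 1061, 765, 697 and 1002 CPM at day 7. Of these, 6 rose at day 1 (all genes 7.79%), Itgam most (2.60), and 8 were above sham at day 7 (all genes 15.3%). Itgam was the 1 lower at day 7 than at day 1 (-1.07), a value under the minimum without day 1 replicate 2 or day 7 replicate 2 or 3.

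The cardiomyocyte genes, led by Myl2 in TPM, summed to 88900 to 103809 CPM in sham, 56503 to 68866 CPM at day 1 and 47939 to 56369 CPM at day 7. Of the 11 genes, 8 were called lower at day 7 than in sham (all genes 5.88%), and 7 to 8 with any 1 heart left out. Endothelial genes, led by Egfl7 in TPM, summed to 1026 to 1202, 868 to 921 and 1298 to 1462 CPM. Of the 9, 1, Cdh5, was called, at day 7 against day 1 (1.01), and not without day 1 replicate 1 or 4 or day 7 replicate 3 (all genes 8.55%). Mural genes, led by Rgs5 in TPM, summed to 1222 to 1378, 877 to 1034 and 1375 to 1496 CPM. Against sham 1 of 8 was called higher at day 1 (all genes 7.79%), and 3 higher and 1 lower at day 7 (15.3% and 5.88%), where sham replicate 1 or day 7 replicate 1 left out took the 3 to 1. Rgs5 alone was higher at day 7 than at day 1. Cycling genes, led by Cdk1 in TPM, summed to 4.59 to 16.5, 19.4 to 24.1 and 133 to 198 CPM. Against sham, 4 of 5 were called higher at day 1 (all genes 7.79%) and 5 of 5 at day 7 (15.3%). The day 1 count was 2 to 5 with any 1 heart left out.

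Atrial genes varied within groups. Led by Nppa, which ventricles also make after injury, they summed to 122 to 923 CPM in sham, 514 to 1289 CPM at day 1 and 1228 to 1877 CPM at day 7. Bmp10, an atrial gene, had 51, 226, 2 and 1387 counts in sham, 3 to 152 at day 1 and 1 to 29 at day 7, so the libraries held unequal amounts of it within each group. Against sham 1 of 6 was called higher and 1, Bmp10, lower at day 1 (all genes 7.79% and 2.98%), and 1 higher and 2 lower at day 7 (15.3% and 5.88%). Without sham replicate 4 the day 1 counts were 3 higher and 0 lower, and the call of Bmp10 was also lost without day 1 replicate 1, 3 or 4. Adipocyte genes, led by Adipoq in TPM, were rare with sums of 0.627 to 5.83 CPM over all hearts, and 0 of the 3 that passed the filter were called. Erythroid genes, led by Hbb-bs, summed to 491 to 4450, 420 to 649 and 241 to 969 CPM, with 3 of 5 called lower than sham at day 1 (all genes 2.98%) and at day 7 (5.88%). With any 1 heart left out the counts ran from 0 to 5 in both comparisons. By edgeR 0 were called at day 1 without sham replicate 2 or day 1 replicate 1 or 2, and 0 at day 7 without sham replicate 2 or day 7 replicate 2. All 5 were called at day 1 without sham replicate 3 or 4, and at day 7 without sham replicate 3 or 4 or day 7 replicate 4. Of 5 lung epithelial genes none passed the filter, and Scgb1a1 was at 0 in all libraries.

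**Figure D5:**
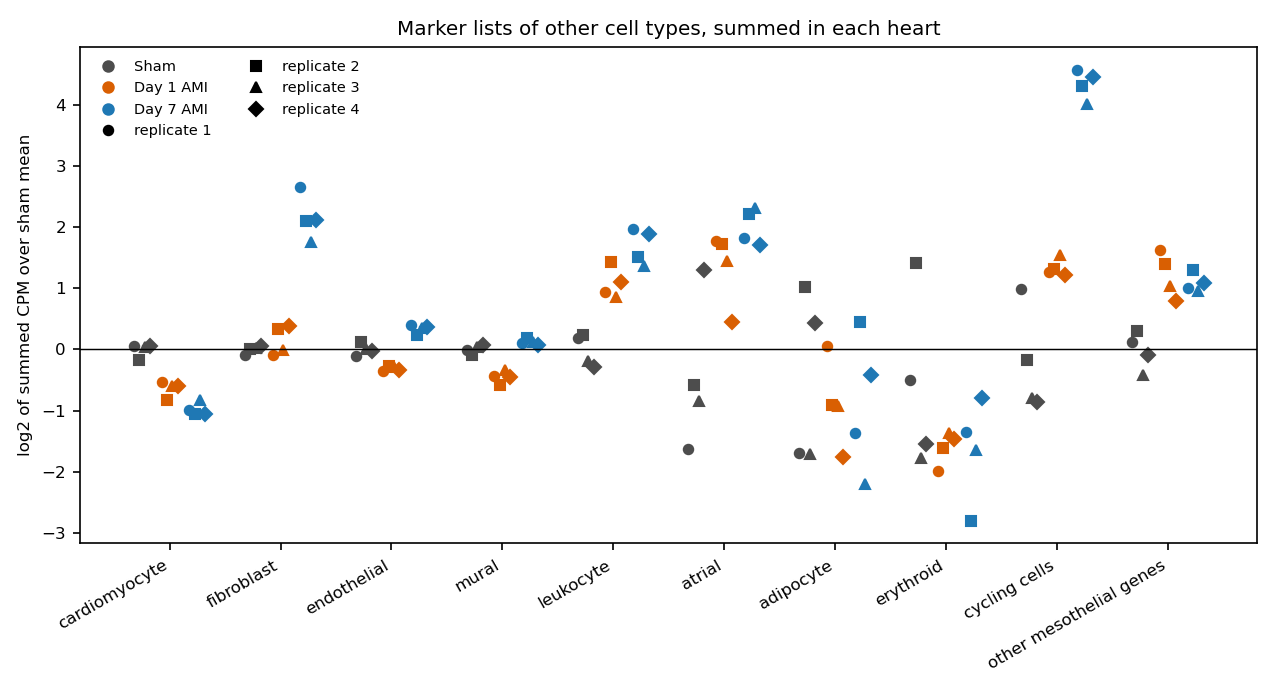
Log2 of the summed CPM of each marker list in each heart over the mean of the sham hearts (y axis), by list (x axis), with colours for groups and marker shapes for replicates. Fibroblast sums separate day 7 (9445 to 17499 CPM) from the other groups, and erythroid, adipocyte and atrial sums spread widely among the sham hearts.

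The genes with the most similar course to each member were sought among 13434 genes with a mean of at least 1 CPM, by the root mean square (RMS) difference of log2 CPM, each gene centred on its own mean over the 12 hearts. The nearest to Msln was another mesothelial gene, Lrrn4 (RMS difference 0.25), followed by Myrf (0.41). Those nearest to Bnc1 were Msln (0.40) and Lrrn4 (0.41). Aldh1a2 was nearest to Msr1 (0.24), a scavenger receptor of macrophages, and Pdpn (0.28). Wt1 was nearest to Srgap1 (0.20) and Cabp1 (0.22), Tbx18 to Faxc (0.17) and Cnn3 (0.18), and Tcf21 to Arhgap19 (0.18) and Cmpk2 (0.20). Upk3b was nearest to Mamdc4 and Cyp2s1 (both 0.37), Upk1b to Ripk3 (0.47) and Slc1a4 (0.48), Krt19 to Gipr (0.45) and Pgf (0.46), and Aldh1a1 to Gm1976 and Smoc2 (both 0.18). The 12 hearts fall into 3 groups, so a small difference mainly says that the group means moved alike.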

How the data were processed

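RNA of 12 mouse hearts (4 sham, 4 at day 1 and 4 at day 7 after AMI) was measured by sequencing. The authors deposited a matrix of gene counts and a matrix of TPM for 53801 genes. Per the submitters' processing notes, reads were called with CASAVA 1.8, aligned to mm10 with STAR 2.4.0j and quantified with RSEM. Whether the deposited counts used strand is not given in the sources used here. Counts were tested with edgeR 4.0.16 (R 4.3.3) by its quasi-likelihood test in 1 fit of the 3 groups, after TMM normalization and edgeR's filter on low counts (10 counts, equal to 0.395 CPM), which 15306 genes passed. A gene was called at a fold change of 2 or more and a Benjamini-Hochberg adjusted p below 0.05 over all tested genes. The scripts were tested on simulated data. The p-values measure the spread between these samples, since the labels give no more than a replicate number.

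Library totals were 23204551 to 32166517 counts and TMM factors 0.78 to 1.17. CPM are counts scaled to these totals times the TMM factors, and the floor used was 3 counts. The deposited TPM were used to compare levels between genes and in limma 3.58.1 as an alternative. Other alternatives were RLE factors, library sizes alone, DESeq2 1.42.0, no filter, only the groups compared, a replicate block, no fold change minimum and leaving out each heart. Leaving out both day 7 hearts with lung surfactant counts was added after the data were seen, as was leaving out each heart for genes of the other lists. Members and lists were chosen with earlier results of these data known. A gene of the retinoid list is not reported here, and the list's values leave it out. In each list, the genes named were taken from the 2 with the highest TPM and up to 3 called genes with the largest change in each comparison. Not all of these are named in the marker lists of other cell types. Each of the paralogues and neighbours is given, and each member's 2 most similar genes are named. Others are marked as chosen after their values were seen. Coordinates are from the GENCODE M21 annotation of GRCm38, and promoter windows are RefSeq windows on GRCm38.p6. Hearts of the same number were not treated as pairs: correlations of their deviations from the group mean were -0.24 to 0.23 (12 pairs, median -0.06), and those of other pairs -0.27 to 0.25 (36 pairs, median 0.03).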

Additional observations from a re-analysis of the deposited data

Results flagged for a closer look

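Each group of 4 hearts was searched for a heart far from the others, by its gap to the nearest heart over the range of the group. Of 75 groups searched, 7 held such a heart, and chance alone gives about 1 in 20. For 3 members a heart stood apart: Wt1 in day 1 replicate 4 (2.96 CPM, next 4.30), Aldh1a2 in day 7 replicate 3 (12.4 CPM, next 17.9) and Bnc1 in day 7 replicate 2 (1.66 CPM, next 0.738). Without the last, Bnc1 lost its call against day 1, while Wt1 and Aldh1a2 kept theirs.

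Summed marker lists gave the other 4. Sham replicate 2 had the lowest cardiomyocyte sum (88900 CPM, next 102697), and sham replicate 4 the highest atrial sum (923 CPM, next 253). Day 1 replicate 2 had the highest sum of paralogues and neighbours (169 CPM, next 150). Tbx20 alone had 160 CPM in that heart and 143 CPM in each of the other day 1 hearts. Day 7 replicate 3 had the highest sum of lung epithelial genes (6.97 CPM, next 1.17). The causes were not tested.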

How the results depend on the processing

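Of 500 alternative values of single members, 457 kept their direction and side of the threshold, 18 fell short of it, 8 newly passed it and 17 changed sign. Leaving out each heart in turn gave 1 to 3 members higher and 1 to 1 lower at day 1 against sham, 5 to 8 higher and 1 to 2 lower at day 7 against day 1, and 4 to 6 higher and 0 to 0 lower at day 7 against sham. The lowest day 1 count came without day 1 replicate 1, when Aldh1a2 alone was called higher.

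At day 1 against sham, 0 members were lower by limma on log2(TPM + 1), where Upk3b had -0.72, and 2 with no fold change minimum, which adds Aldh1a1. At day 7 against day 1, 2 were lower with RLE factors, DESeq2, no filter or only the groups compared, which add Krt19. With a replicate block the counts were unchanged, 3 and 1, 7 and 1, and 6 and 0, and a heart was closest to the heart of its own number in another group in 5 of 24 cases, so the hearts were not taken as paired.

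The values that changed sign were near 0. For day 1 against sham, Wt1 was 0.17 with library sizes alone, 0.23 by limma on log2(TPM + 1), 0.33 on log2(TPM + 0.1), 0.22 without sham replicate 2 and 0.04 without day 1 replicate 4. Tcf21 was 0.24, 0.28 and 0.31 under the first 3 of these, 0.16 without sham replicate 2, 0.03 without day 1 replicate 1 and 0.02 without day 1 replicate 3. Msln was 0.0328, 0.0357 and 0.0324 under those 3, 0.13 without sham replicate 2 and 0.01 without day 1 replicate 3. Krt19 at day 7 against sham was -0.0877 without sham replicate 3. Over all single hearts left out, Wt1 ran from -0.22 to 0.22, Tcf21 from -0.11 to 0.16, Msln from -0.68 to 0.13 and Krt19 from -0.0877 to 0.93. The cause was not tested.

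Library sizes alone moved the median log2 fold change of all genes to 0.26, 0.15 and 0.43 in the 3 comparisons, limma on log2(TPM + 1) to 0.23, 0.18 and 0.44, and on log2(TPM + 0.1) to 0.31, 0.25 and 0.57. In the main analysis 72.3%, 76.1% and 72.3% of calls were higher, with library sizes alone 89.0%, 84.7% and 92.0%, on log2(TPM + 1) 93.8%, 87.1% and 96.0%, and on log2(TPM + 0.1) 92.4%, 89.3% and 95.7%. At this depth Bnc1, with 2 to 43 counts, could not be measured closely.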

Other observations

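Some retinoid genes varied among hearts of a group and were chosen after their values were seen. Lrat, which stores retinol as esters, had 12, 7, 123 and 97 counts in sham, 6, 10, 10 and 50 at day 1 and 8, 53, 46 and 30 at day 7. Crabp2, a binding protein of retinoic acid that did not pass the filter, had 0, 0, 1 and 0 counts in sham, 0, 6, 5 and 4 at day 1 and 28, 10, 5 and 24 at day 7.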
